A study of Mus musculus with 8 samples.

Results

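The cytosolic ribosome of the mouse is built from ribosomal RNA and the products of a large family of Rpl (large subunit) and Rps (small subunit) genes. These genes were taken from the count table by name: every protein-coding row with an Rpl or Rps name in the standard numbered form, plus Rplp0, Rplp1, Rplp2 and Rpsa. The rule gave 83 genes of 56748 in the table, 51 of the large and 32 of the small subunit. Of these, 81 passed the filter on low counts and were tested with all 16780 genes that passed it. The other two were Rpl39l, with 0 to 6 reads per library, and Rpl10l, with 0 reads in every library, where a count of 0 allows up to 3 reads. A further 6 rows with names of the same form were annotated as pseudogenes and are not members.

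Whole hearts of 8 mice, described as C56BL and 3 to 4 months old, were sequenced from polyadenylated RNA 7 days after transverse aortic constriction, a ligature that makes the left ventricle pump against raised pressure. In 4 of them, labelled CMS7KO, Smad7 had been excised, per the labels, by a Cre recombinase driven by the alpha myosin heavy chain promoter, which is active in cardiomyocytes. The other 4, labelled ACRE, carried the same Cre and served as controls, so Cre and constriction are shared by all 8, and no heart without them was analysed here. Animals whose carotid flow ratio was below 3 or above 25 after banding had been left out, per the labels. Replicates 1 and 2 of each group are labelled male and replicates 3 and 4 female.

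Libraries held 12920435 to 17199600 reads counted in genes, and reads in the 83 genes took 1.01 to 2.03% of them. The 95% exact binomial interval of that share reached at most 0.00731 percentage points to either side, counting error only. Smad7 stood at 38.7 ± 5.47 CPM (reads per 1000000 counted reads, with libraries scaled by TMM) in CMS7KO and 31.4 ± 5.07 CPM in ACRE (SD, n = 4 each; edgeR adjusted p = 0.415), so transcript levels do not check the genotype labels and the groups are named as labelled. CMS7KO 3 and ACRE 3, labelled female, held Y-linked reads and at most 9 Xist reads. ACRE 2 and ACRE 4 stood apart from the other 6 libraries in expression. Cardiomyocyte markers were abundant in every library, with a summed level of 37861 to 59630 CPM in CMS7KO and 50499 to 108965 CPM in ACRE.

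Ribosomal proteins are made in near equal amounts, and their mRNAs are short, abundant and stable. Most of these mRNAs begin with a C followed by a run of pyrimidines, the 5′ terminal oligopyrimidine (TOP) tract, through which mTORC1 signalling and the RNA-binding protein Larp1 set their translation. In the heart muscle cell, pressure overload raises protein synthesis and the building of ribosomes. A few members have a paralog with tissue-restricted expression. Rpl3l, found almost only in heart and skeletal muscle, can take the place of Rpl3, an early-assembling protein that lies near the site of peptide bond formation.

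The coding sequences of Rpl3l (ENSMUSG00000002500, chromosome 17, 24946794 to 24955117 on the + strand as the table gives positions) and Rpl3 (ENSMUSG00000060036, chromosome 15, 79961992 to 79976069 on the - strand) are shown around the longest run that they share, because reads of both genes are compared below. Over 1208 aligned coding bases of the GENCODE M21 transcripts (GRCm38), 73.8% were identical, and the longest shared run was 22 bases. Both stretches cover coding bases 130 to 181, counted from the A of the start codon. Capitals mark the 8 positions at which the sequences differ.
Rpl3l: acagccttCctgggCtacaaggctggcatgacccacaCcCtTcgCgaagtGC
Rpl3: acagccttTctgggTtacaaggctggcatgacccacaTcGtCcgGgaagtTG
No window of 50 bases in the Rpl3l transcript occurred in a transcript of another gene, while 14.4% of the Rpl3 windows were its own and 81.5% occurred in the pseudogene Rpl3-ps1.

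The starts of transcription of 5 members are shown because the TOP tract is the element that most ribosomal protein mRNAs have in common. They are 30 bases from RefSeq on GRCm38.p6, from 15 before the annotated start to 15 from it onward, for Rpl3l and for the members with a usable entry among the 6 with the smallest p in the higher direction. Capitals mark the longest tract of a C followed by at least 4 bases that are C or T, where one begins within 10 bases of the annotated start on the transcribed strand, cut at the end of the window.
Rpl3l, chr17:24727811-24727840, + strand, one of 2 annotated starts: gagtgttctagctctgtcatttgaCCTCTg
Rps12, chr10:23787195-23787224, - strand: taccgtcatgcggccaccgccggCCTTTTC
Rps19, chr7:24884898-24884927, + strand, the one of 3 annotated starts with a tract: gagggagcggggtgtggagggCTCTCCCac
Rps28, chr17:33824548-33824577, - strand: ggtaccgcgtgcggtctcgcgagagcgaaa
Rpl27, chr11:101442230-101442259, + strand: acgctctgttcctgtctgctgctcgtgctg
Rps12, Rps19 and Rpl3l have a tract in this window, and none begins in the searched window of Rps28 or Rpl27. The other annotated start of Rpl3l has none. All marked tracts begin some bases after the annotated start, so whether these mRNAs begin with a TOP tract was not tested. Of the 63 members matched by symbol to the table of starts, 39 (61.9%) had a tract by the same rule, against 34.3% of 26962 other genes.

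Most ribosomal protein genes had higher mean levels in CMS7KO than in ACRE hearts, but no single member passed the test. The log2 fold change was above 0 for 73 of 81 members (90.1%), with a median of 0.31, while it was above 0 for 49.4% of all 16780 genes, with a median of -0.01. By edgeR's quasi-likelihood test with adjustment over all genes, 0 members were called higher and 0 lower, against a background of 0.0179% of all genes in each direction, and the smallest adjusted p was 0.295. At an unadjusted p under 0.05 the count was 9 members higher (11.1%) and 0 lower, with backgrounds of 7.12% and 8.2%. DESeq2 and limma voom also called 0 members, against DESeq2 backgrounds of 1.66% higher and 1.23% lower.

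Members of both subunits were among those above 0. The median log2 fold change was 0.35 over 32 small subunit members, of which 30 were above 0, and 0.30 over 49 large subunit members, of which 43 were above 0. All 4 CMS7KO libraries lay above all 4 ACRE libraries in 16 members (19.8%, background 5.41%), among them Rps4x, Rps14, Rpl10 and Rpl19. Rpl3l was the only member (1.23%, background 4.18%) whose 4 CMS7KO libraries all lay below the 4 ACRE libraries.

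**Figure D1:**
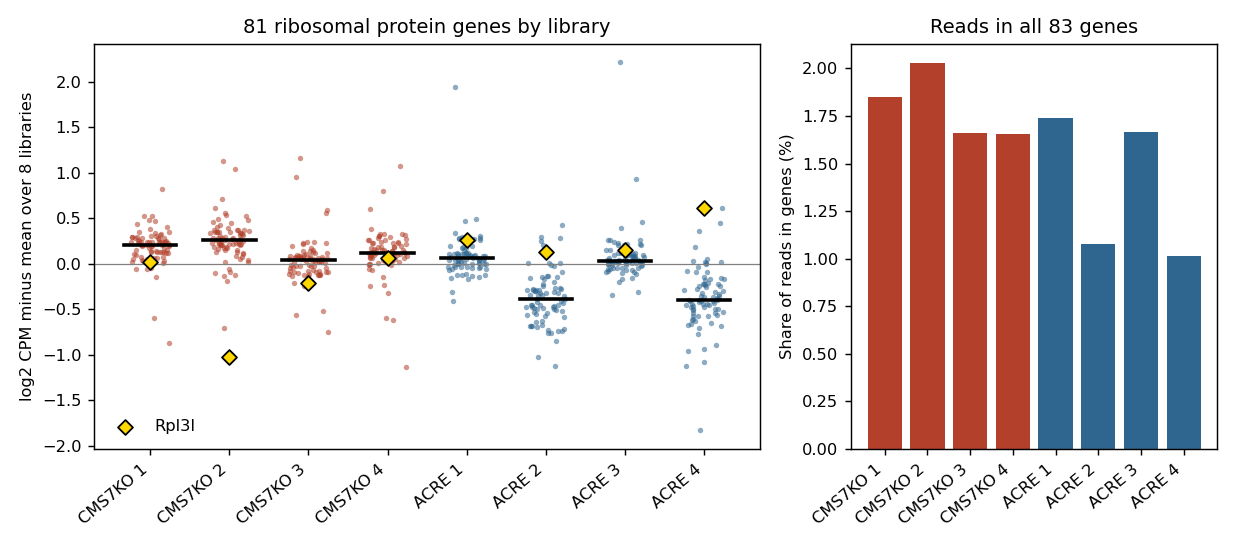
Left, log2 CPM of 81 ribosomal protein genes in each library, each gene minus its own mean over the 8 libraries (points), with the median of the genes (black line) and Rpl3l (gold diamond). Right, percent of reads in genes that fell in all 83 genes. The black lines sit at 0.04 to 0.26 in CMS7KO and at 0.06, -0.39, 0.03 and -0.40 in ACRE 1 to 4, and Rpl3l lies below the line in all 4 CMS7KO libraries and above it in all 4 ACRE libraries.

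The plot of members by library shows ACRE 2 and ACRE 4 below the other 6 libraries. The median member stood 0.21, 0.26, 0.04 and 0.12 log2 units above its mean in CMS7KO 1 to 4. In ACRE 1 to 4 it stood at 0.06, -0.39, 0.03 and -0.40. ACRE 2 and ACRE 4 were the lowest pair of libraries in 62 of 81 members (76.5%) and in 19.5% of all genes tested. The share of reads in the 83 genes was 1.85, 2.03, 1.66 and 1.65% in CMS7KO 1 to 4, against 1.74, 1.08, 1.66 and 1.01% in ACRE 1 to 4. ACRE 1 and ACRE 3 therefore lay within the CMS7KO range, and only ACRE 2 and ACRE 4 lay below it. The mean share was 1.80 ± 0.18% in CMS7KO and 1.37 ± 0.38% in ACRE (SD, n = 4 each), or 2.25 ± 0.18% and 1.71 ± 0.44% of the reads outside mitochondrial genes. The difference in the share was 0.43 percentage points, and 0.10 without ACRE 2 and ACRE 4.

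Without ACRE 2 and ACRE 4, a setting chosen after the data were seen, the median log2 fold change was 0.11 over the members and 0.01 over all genes, and 69 of 81 members were above 0. That fit called 0 members, against backgrounds of 0.481% of all genes higher and 0.498% lower. At an unadjusted p under 0.05 it had 0 members higher and 3 lower of 81, with backgrounds of 6.55% and 5.69%. All 4 CMS7KO libraries lay above both ACRE 1 and ACRE 3 in 16 members (19.8%, background 12.4%) and below both in 5 (6.17%, background 12.2%), which were Rpl3l, Rpl15, Rpl30, Rplp1 and Rps3a1.

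Several other measures moved with ACRE 2 and ACRE 4, and their part in the members' difference was not tested. The cardiomyocyte markers summed to 87374 CPM in ACRE 2 and 108965 CPM in ACRE 4, above every other library. In bulk tissue, fewer cells of a type and less RNA per cell cannot be told apart. Short genes outside the family leaned the same way as the members: the shortest of 4 equal length classes, 57 to 2312 bases, had a median of -0.13 in ACRE 2 and -0.15 in ACRE 4 on the centred log2 scale, and a median log2 fold change of 0.08. Genes in the longest class had medians of 0.06 and 0.08 in those libraries and a median log2 fold change of -0.09. The tested members had a median gene length of 1781 bases, against 3950 for all tested genes. With an offset for gene length the members' median log2 fold change was 0.23, with 70 of 81 above 0.

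**Figure D2:**
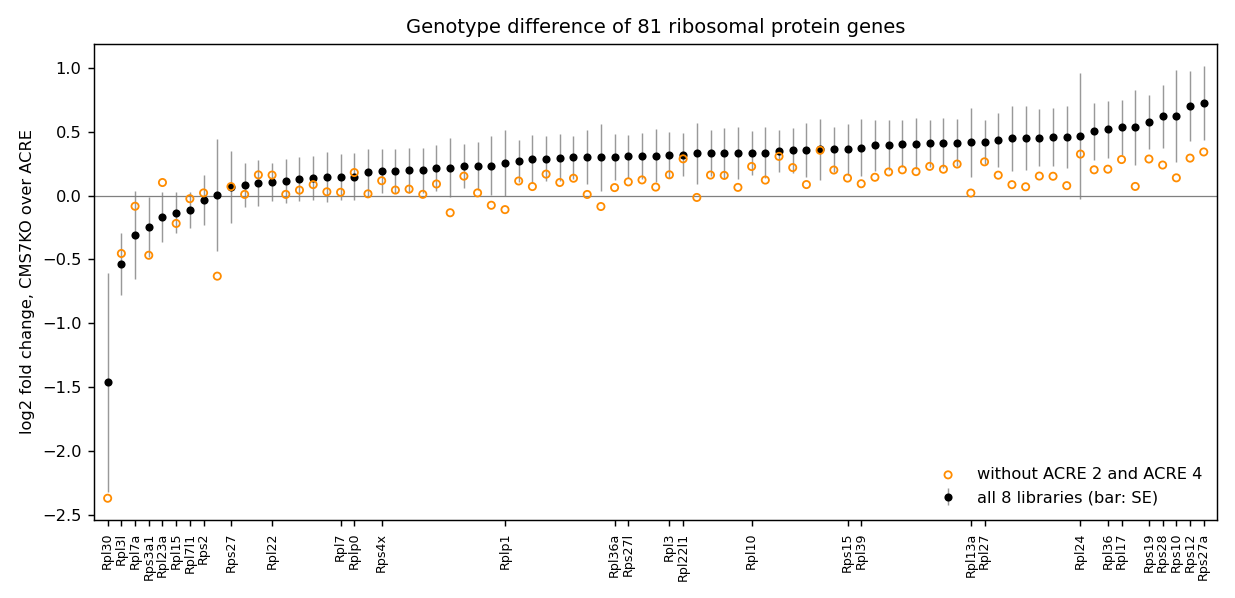
Log2 fold change of CMS7KO over ACRE for the 81 tested ribosomal protein genes, ordered by size, with the genes of the naming rule labelled, from all 8 libraries (black, bar: SE) and from the 6 libraries without ACRE 2 and ACRE 4 (open orange). With all libraries 73 genes lie above 0 and 8 below, from -1.46 for Rpl30 to 0.73 for Rps27a, and most open points lie nearer to 0.

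Small subunit genes led the members with the smallest p in the higher direction, and their values are given although none passed the test. Rps19, a protein of the 40S head that is mutated in human Diamond-Blackfan anaemia, stood at 154, 179, 152 and 160 CPM in CMS7KO 1 to 4, against 125, 83.4, 139 and 84.4 CPM in ACRE 1 to 4. Its groups did not overlap, and the log2 fold change was 0.58 (SE 0.21, adjusted p = 0.295), or 0.29 without ACRE 2 and ACRE 4. Rps28 stood at 74.6, 79.8, 64.9 and 62.6 CPM in CMS7KO, against 62.4, 38.3, 56.3 and 26.1 CPM in ACRE, a log2 fold change of 0.62 (SE 0.24, adjusted p = 0.308), or 0.24 without ACRE 2 and ACRE 4. CMS7KO 4 exceeded ACRE 1 by under 1 CPM there, and ACRE 2 and ACRE 4 were again the lowest pair.

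Rps12 stood at 129, 102, 74.0 and 86.1 CPM in CMS7KO and at 79.2, 43.0, 76.8 and 37.7 CPM in ACRE. The groups overlapped, at a log2 fold change of 0.70 (SE 0.27, adjusted p = 0.307), or 0.29 without ACRE 2 and ACRE 4. Rps27a, which is made as a fusion with ubiquitin, had the largest log2 fold change of the members in the fit of all 8 libraries, at 0.73 (SE 0.29, adjusted p = 0.312). It was 0.46 without CMS7KO 3, where Rps12 had 0.79, and 0.34 without ACRE 2 and ACRE 4. Its level was 89.0, 90.6, 147 and 78.9 CPM in CMS7KO, with CMS7KO 3 highest, against 84.9, 45.1, 73.0 and 40.7 CPM in ACRE. Both genes share sequence with copies: 9.89% of the 50-base windows of Rps12 and 28.1% of those of Rps27a were their own.

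In the large subunit, Rpl27 stood at 180, 182, 168 and 196 CPM in CMS7KO and at 143, 123, 159 and 117 CPM in ACRE. The groups did not overlap, and the log2 fold change was 0.42 (SE 0.17, adjusted p = 0.312), or 0.26 without ACRE 2 and ACRE 4. Rpl17 averaged 67.6 ± 19.0 CPM in CMS7KO and 45.4 ± 9.34 CPM in ACRE (SD, n = 4 each), with overlapping groups and a log2 fold change of 0.53 (SE 0.21, adjusted p = 0.312). It was 0.28 without ACRE 2 and ACRE 4 and 0.30 with the reads of its pseudogenes added, and 21.3% of the windows of Rpl17 were unique.

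Of the stalk proteins, which recruit elongation factors to the ribosome, Rplp1 and Rplp0 were among the 5 members highest per kilobase of gene length. Rplp2, the other one, was at 69.8 ± 17.0 CPM per kb (SD over 8 hearts), below the members' median of 86.2 CPM per kb. The table counts 2072 bases for Rplp2, however, and its principal GENCODE transcript has 421. Per kilobase of transcript Rplp2 stood at 344 CPM, so its low place depends on the length used. The order of the highest members depends on it too: per kilobase of transcript Rpl41 stood at 636, Rps15 at 582 and Rps3a1 at 311 CPM. Per kilobase of the gene length in the table, Rplp1 had the highest mean level at 874 ± 194 CPM per kb (SD over 8 hearts). Rps15 followed at 462 ± 82.0, Rpl36 at 417 ± 102, Rplp0 at 366 ± 31.3 and Rps3a1 at 311 ± 76.5 CPM per kb, and neighbours in this order after Rplp1 did not differ beyond their spread. Rplp1 was at 501, 488, 445 and 464 CPM in CMS7KO 1 to 4 and at 512, 306, 509 and 264 CPM in ACRE 1 to 4. ACRE 1 and ACRE 3 were therefore the highest and ACRE 2 and ACRE 4 the lowest, and the log2 fold change of 0.25 (SE 0.26) became -0.11 without ACRE 2 and ACRE 4. Rplp0, the base of the stalk, stood at 666, 676, 557 and 658 CPM in CMS7KO 1 to 4 and at 555, 571, 569 and 612 CPM in ACRE 1 to 4. ACRE 4 was thus not low for Rplp0.

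Of the members with the lowest levels per kilobase of gene length in the table, Rpl24 and Rps10 had few windows of their own. Rpl24 stood at 1.02 ± 0.53, Rps10 at 1.79 ± 0.69, Rpl13a at 6.96 ± 1.99, Rpl22l1 at 8.25 ± 1.32 and Rpl30 at 9.37 ± 9.84 CPM per kb (SD over 8 hearts), all below the lower quartile of the tested members (51.3 CPM per kb). Only 18.3% of the 50-base windows of the Rpl24 transcript and 7.57% of those of Rps10 were free of an identical window in another gene, against 42.6% for Rpl13a, 42.7% for Rpl22l1 and 52.2% for Rpl30. The gene that shared most windows of Rps10, at 90.6%, was RPS10-NUDT3, whose level is not given here. The pseudogene Rps10-ps2 was listed at 42.6 ± 5.07 CPM in CMS7KO and 32.9 ± 4.27 CPM in ACRE, against 5.04 ± 0.97 and 3.22 ± 1.66 CPM for Rps10 itself (SD, n = 4 each). Over the 81 tested members the median share of such unique windows was 44.6%, 17 members had under 20%, and Rpl3l had 100%. That share hardly tracked the mean CPM over these members (Spearman correlation 0.12). Rpl10, for example, had 7.87% unique windows and averaged 295 CPM. The sources used here do not say how reads with several matching places were assigned, so levels of members with few unique windows are uncertain.

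**Figure D3:**
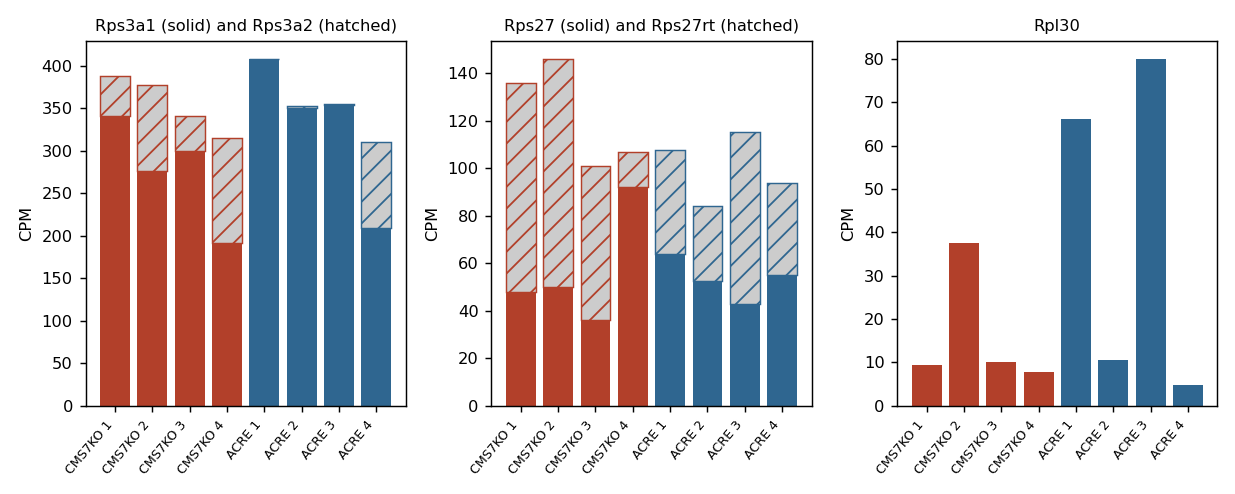
CPM by library of Rps3a1 with its copy Rps3a2 stacked on it (left), of Rps27 with Rps27rt stacked on it (middle) and of Rpl30 (right). Rps3a2 is at 41.3 to 124 CPM in the 4 CMS7KO libraries and at 0.76 to 2.15 CPM in ACRE 1 to 3, with 101 CPM in ACRE 4, while the stacked sum spans 310 to 409 CPM.

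Levels of Rps3a1 and its copy Rps3a2 mostly varied between libraries in opposite directions, as the plot of copies shows. Rps27 and Rps27rt stood apart in opposite directions in CMS7KO 4. Rps3a1, a small subunit protein, stood at 341, 276, 300 and 192 CPM in CMS7KO 1 to 4 and at 408, 351, 354 and 209 CPM in ACRE 1 to 4, a log2 fold change of -0.25 (SE 0.24, adjusted p = 0.613) that was -0.40 without CMS7KO 3 and -0.10 without ACRE 3. Its pseudogene Rps3a2, with which it shares 61.4% of its windows, stood at 47.5, 102, 41.3 and 124 CPM in CMS7KO, against 0.76, 2.15, 1.13 and 101 CPM in ACRE. The sum of both averaged 356 ± 33.5 CPM in CMS7KO and 357 ± 40.2 CPM in ACRE (SD, n = 4 each), so the lower mean of Rps3a1 was not seen in the sum.

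Rps27, a zinc finger protein of the small subunit, shared 98.6% of its windows with the protein-coding copy Rps27rt. CMS7KO 4 had 92.1 CPM for Rps27 and 14.8 CPM for Rps27rt, while the other 7 libraries had 35.8 to 63.6 and 31.6 to 96.2 CPM. The sum was 122 ± 21.9 CPM in CMS7KO and 100 ± 13.9 CPM in ACRE (SD, n = 4 each). Rpl30 spread most among members below 0: it stood at 9.35, 37.6, 10.1 and 7.77 CPM in CMS7KO and at 66.2, 10.6, 80.1 and 4.73 CPM in ACRE, a log2 fold change of -1.46 (SE 0.86, adjusted p = 0.417). That value was -0.17 without ACRE 3 and -2.17 without CMS7KO 2, and -2.37 without ACRE 2 and ACRE 4. Rpl30-ps10 was at 0 to 0.22 CPM in CMS7KO and at 4.27, 0.13, 10.6 and 0.29 CPM in ACRE 1 to 4, so the 2 libraries with most Rpl30 reads also had the most reads of this copy.

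Rpl3l, the striated muscle paralog, had lower values in CMS7KO, opposite to most of the family. Its level was 138, 66.4, 118 and 142 CPM in CMS7KO 1 to 4 (1280 to 1904 reads per library), against 163, 148, 151 and 207 CPM in ACRE 1 to 4 (2144 to 2778 reads per library). The groups did not overlap, with CMS7KO 2 lowest and ACRE 4 highest. Means were 116 ± 34.7 CPM in CMS7KO and 167 ± 27.2 CPM in ACRE (SD, n = 4 each). The log2 fold change was -0.53 (SE 0.24, unadjusted p = 0.0516, edgeR adjusted p = 0.327), which did not pass the test. It was -0.35 without CMS7KO 2 and -0.45 without ACRE 2 and ACRE 4.

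Rpl3 stood at 299, 327, 270 and 277 CPM in CMS7KO and at 275, 238, 247 and 180 CPM in ACRE. The log2 fold change was 0.32 (SE 0.18, edgeR adjusted p = 0.402), or 0.16 without ACRE 2 and ACRE 4. ACRE 4 was lowest, and CMS7KO 3 lay below ACRE 1. Per kilobase of the gene length in the table, Rpl3l (86.2 ± 24.2 CPM per kb) and Rpl3 (83.1 ± 13.8) did not differ beyond their spread over 8 hearts. Per kilobase of the principal GENCODE transcript, however, Rpl3l stood at 103 and Rpl3 at 195 CPM per kb, because the table counts 3175 bases for Rpl3 and its principal transcript has 1351.

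**Figure D4:**
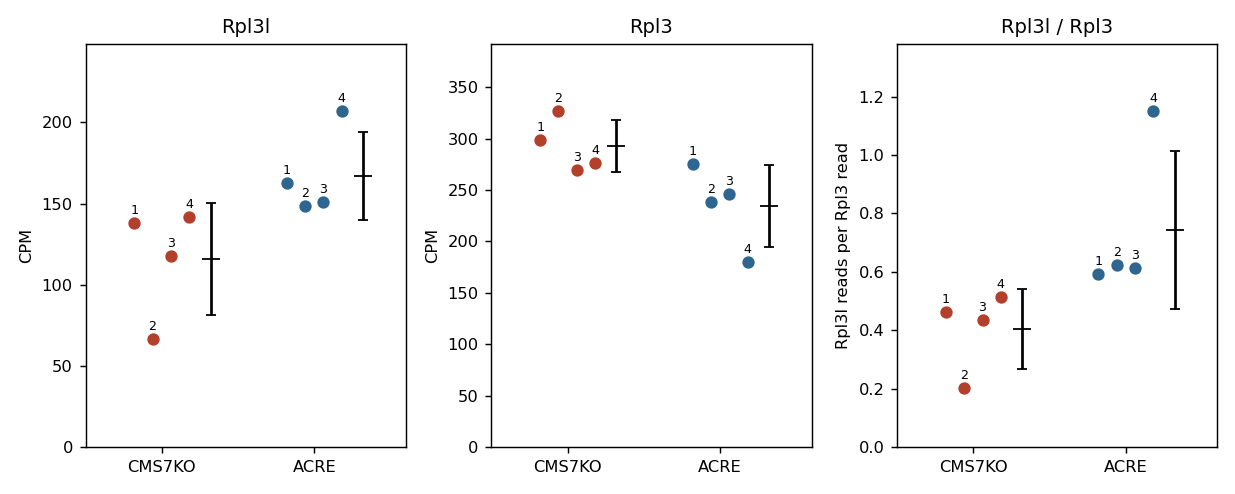
CPM of Rpl3l (left) and Rpl3 (middle) and reads of Rpl3l per read of Rpl3 (right) in CMS7KO and ACRE hearts. Points are libraries marked with their replicate number, and the black mark is the mean with SD (n = 4 each). The ratio is 0.203 to 0.513 in CMS7KO and 0.591 to 1.15 in ACRE, with no overlap.

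The ratio of the paralogs separated the groups, as the plot of both genes shows. Reads of Rpl3l per read of Rpl3 were 0.462, 0.203, 0.436 and 0.513 in CMS7KO 1 to 4 and 0.591, 0.624, 0.612 and 1.15 in ACRE 1 to 4. CMS7KO 2 was the lowest and ACRE 4 by far the highest, and every CMS7KO library was below every ACRE library. The mean log2 ratio was lower by 0.90 in CMS7KO (difference -0.90, SE 0.38), equal to a 1.87-fold higher ratio in ACRE. A two-sided exact permutation test over 70 assignments gave p = 0.0286, the smallest that this design allows. Adjusted over the 4 pairs of paralogs tested, the exact permutation p was 0.114, so the ratio did not pass after correction. With the other pairs above the smallest p, full separation of this pair alone could not pass. The adjusted p therefore does not decide whether the ratio differs. The ratio carries the uncertainty of Rpl3, of whose windows 14.4% were its own and 81.5% occurred in Rpl3-ps1. With the reads of its pseudogenes added, the log2 fold change of Rpl3 was 0.32.

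Leaving out a library kept the sign: the difference was -0.60 without CMS7KO 2, -0.67 without ACRE 4 and -0.66 without ACRE 2 and ACRE 4. With 4 against 3 libraries the exact permutation test cannot go below p = 0.0571. Relative to Myh6, the alpha myosin heavy chain gene of cardiomyocytes, Rpl3l had 0.910, 0.694, 0.845 and 0.831 reads per 100 Myh6 reads in CMS7KO, against 0.863, 0.457, 1.03 and 0.470 in ACRE. Those groups overlapped, with ACRE 2 and ACRE 4 lowest. The summed skeletal muscle markers, the other muscle type that has Rpl3l, were 42.5 to 86.8 CPM in CMS7KO and 43.6 to 149 CPM in ACRE, with Myh4 at 0.

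None of the other 3 pairs separated the groups. Rpl22l1 per Rpl22 read was 0.132 ± 0.0204 in CMS7KO and 0.113 ± 0.0151 in ACRE (SD, n = 4 each), a log2 difference of 0.20 (SE 0.15; exact permutation test, adjusted p = 0.343). Rpl22l1 itself was at 16.5, 18.4, 16.9 and 21.1 CPM in CMS7KO, above the 14.6, 16.3, 15.1 and 12.3 CPM of ACRE, while Rpl22 overlapped. Rps27l, a target of p53, had 1.04 ± 0.379 reads per Rps27 read in CMS7KO and 0.812 ± 0.248 in ACRE (SD, n = 4 each; log2 difference 0.32, SE 0.36, exact permutation test, adjusted p = 0.429). That ratio carries the uncertainty of Rps27 and its copy. Rpl7l1 per Rpl7 read was 0.0995 ± 0.0145 in CMS7KO and 0.120 ± 0.0237 in ACRE (SD, n = 4 each; log2 difference -0.26, SE 0.17, exact permutation test, adjusted p = 0.343).

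Most members varied together across libraries, and Rpl3l did not vary with them. Within the 6 libraries other than ACRE 2 and ACRE 4, the Pearson correlation of a member with the median member was 0.76 at the median, over 0.8 for 34 of 81 and below 0 for 12. These libraries share their preparation and depth range, and the values are a description. The 5 members with the lowest correlation over all 8 libraries were Rpl23a, Rpl3l, Rpl7l1, Rpl7a and Rps2, at -0.77, -0.64, -0.59, -0.46 and -0.22. Over the 6 libraries these members had -0.02, -0.68, -0.09, -0.35 and 0.16. Rpl3l was the lowest of all members there, followed by Rpl15 at -0.64 and Rpl13a at -0.59. Rpl23a stood at 85.9, 81.7, 96.6 and 76.0 CPM in CMS7KO 1 to 4 and at 88.2, 103, 70.4 and 121 CPM in ACRE 1 to 4, and was the only tested member with ACRE 2 and ACRE 4 as the highest pair.

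Rps2 lies 5890 bases from Rpl3l on chromosome 17 by the positions in the table. It stood at 472, 384, 417 and 319 CPM in CMS7KO 1 to 4 and at 413, 394, 369 and 453 CPM in ACRE 1 to 4, with overlapping groups and a log2 fold change of -0.04 (SE 0.20). Of Rpl7a, 18.8% of windows were unique, and it stood at 83.5 CPM in CMS7KO 4, against 24.2 to 27.6 CPM in CMS7KO 1 to 3 and 30.0 to 53.2 CPM in ACRE. Rpl15 averaged 146 ± 7.35 CPM in CMS7KO and 160 ± 17.0 CPM in ACRE (SD, n = 4 each; log2 fold change -0.13, SE 0.16).

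The genes most like Rpl3l across the 8 libraries were of another kind. Among 11419 genes with at least 5 CPM, the 5 with the highest correlation were Fdx1, an electron carrier of mitochondria, Ech1, an enzyme of fatty acid oxidation, the peroxisomal membrane gene Pxmp2, the citric acid cycle gene Suclg1 and the mitochondrial ribosomal gene Mrps35. Their Pearson correlation with Rpl3l over the 6 libraries was 0.98 to 0.99. Those 6 are among the 8 libraries by which the genes were picked, so these values are no independent check of the likeness. CMS7KO 2, where Rpl3l was lowest at 66.4 CPM, is one of the 6, and its part in the correlations was not tested. Each of the 5 genes was lowest in CMS7KO 2, as Rpl3l was. Ech1, for example, stood at 718, 370, 612 and 699 CPM in CMS7KO and at 817, 674, 713 and 1063 CPM in ACRE.

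The X-linked members are Rps4x, Rpl10, Rpl39 and Rpl36a. Rps4x was at 378 ± 22.3 CPM in CMS7KO and 331 ± 20.8 CPM in ACRE, and Rpl10 at 330 ± 32.8 and 261 ± 22.9 CPM (SD, n = 4 each), both without overlap and neither called. Rpl39 averaged 90.5 ± 20.6 CPM in CMS7KO and 68.6 ± 17.1 CPM in ACRE, and Rpl36a 66.3 ± 7.78 and 53.6 ± 11.6 CPM, with overlap. For the sex label edgeR and DESeq2 called 0 of 81 members, as edgeR did of all genes (0%), and 1 member (1.23%), Rpl29, had an unadjusted p under 0.05, the same share as among all genes. For the interaction of genotype and sex label edgeR called 0 members (background 0%), and 0 had an unadjusted p under 0.05 (background 1.06%). Of the 4 libraries labelled female, 2 go against that label, so this comparison is of labels.

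The wider translation machinery is given by lists, with edgeR calling 0 genes in each. Ribosomal proteins outside the name rule had values on the same side as most members: 5 of 5 tested were above 0. Their median log2 fold change was 0.50, or 0.25 without ACRE 2 and ACRE 4. At an unadjusted p under 0.05, 3 were higher (background over all genes 7.12%). Fau, made as a fusion of a ubiquitin-like protein with a small subunit protein, was at 195 ± 10.3 CPM in CMS7KO and 132 ± 38.3 CPM in ACRE (SD, n = 4 each; adjusted p = 0.307).

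Of the factors that act on the ribosome, most had log2 fold changes below 0 with all 8 libraries. Of 38 initiation factors 11 were above 0 and 27 below, with a median of -0.15. At an unadjusted p under 0.05 there were 6 lower and 0 higher (backgrounds over all genes 8.2% and 7.12%). DESeq2 called 1 lower (background 1.23%). That gene was Eif4e, the cap-binding protein, at 63.3 ± 8.92 CPM in CMS7KO and 116 ± 37.1 CPM in ACRE (SD, n = 4 each; log2 fold change -0.87, edgeR adjusted p = 0.215, DESeq2 adjusted p = 0.032). Of 13 elongation and termination factors 3 were above 0 and 10 below, with a median of -0.27 and 1 lower at an unadjusted p under 0.05. Of 29 genes of the mTORC1 pathway and of TOP mRNA binding 8 were above 0 and 21 below, with a median of -0.22 and 4 lower at an unadjusted p under 0.05. Sesn1, an inhibitor of mTORC1, was the one that DESeq2 called, at 80.9 ± 6.72 CPM in CMS7KO and 139 ± 38.1 CPM in ACRE (edgeR adjusted p = 0.214). Without ACRE 2 and ACRE 4 the medians of these 3 lists were 0.01, 0.01 and 0.06.

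Ribosome biogenesis factors, with 13 above 0 and 31 below of 44, had a median of -0.09, and RNA polymerase I genes, with 4 above and 10 below of 14, a median of -0.05. At an unadjusted p under 0.05 the counts were 1 higher and 2 lower for the biogenesis list and 0 for polymerase I, and DESeq2 called 0 in both. The backgrounds over all genes were 7.12% higher and 8.2% lower at that p, and 1.66% and 1.23% by DESeq2. In the ribosome quality control and hibernation list, 5 of 17 were above 0 and 12 below, with a median of -0.26, 1 lower at an unadjusted p under 0.05 and 0 called by DESeq2. Among 16 p53 targets linked to ribosomal stress, 6 were above 0 and 10 below, with a median of -0.09 and with 4 higher and 3 lower at an unadjusted p under 0.05. DESeq2 called 2 higher and 2 lower there: Phlda3, for example, was at 40.2 ± 4.83 CPM in CMS7KO and 23.0 ± 3.62 CPM in ACRE, and Btg2 at 40.1 ± 4.85 and 106 ± 60.7 CPM (SD, n = 4 each; edgeR adjusted p = 0.162 and 0.184). The 2 lower were Btg2 and Sesn1, and Sesn1 is the same gene that DESeq2 called in the mTORC1 list. Without ACRE 2 and ACRE 4 the medians were -0.01 for biogenesis, -0.02 for polymerase I, -0.02 for quality control and hibernation and 0.11 for the p53 targets.

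Markers of other cells are given beside the members, and edgeR called 0 genes in these lists. All 10 fibroblast markers were above 0, with a median log2 fold change of 0.59, as were 9 of 10 macrophage and monocyte markers, with a median of 0.77, and 7 of 8 endothelial markers, with a median of 0.15. The summed level of the macrophage list was 955 to 1159 CPM in CMS7KO and 473 to 831 CPM in ACRE, and that of the fibroblast list 4246 to 7427 and 3418 to 3937 CPM. The endothelial sum overlapped, at 2679 to 3423 CPM in CMS7KO and 1686 to 3769 CPM in ACRE. Cardiomyocyte markers were below 0 in 11 of 12, with a median of -0.26. Without ACRE 2 and ACRE 4 the medians were 0.59 for fibroblasts, 0.75 for macrophages, -0.29 for endothelium and -0.07 for cardiomyocytes, so the endothelial median turned. At an unadjusted p under 0.05 the counts were 5 higher for fibroblasts, 8 higher for macrophages and 0 for endothelium. For cardiomyocytes they were 1 higher and 2 lower, and the backgrounds over all genes were 7.12% higher and 8.2% lower. DESeq2 called 3 fibroblast and 5 macrophage markers higher, 0 endothelial, and 1 cardiomyocyte marker higher and 1 lower (backgrounds 1.66% and 1.23%). Among the remaining lists, 8 of 8 lymphocyte, 7 of 7 erythroid and platelet, 4 of 4 adipocyte, 3 of 3 lung epithelial and thymic, 5 of 6 skeletal muscle and 7 of 9 smooth muscle and pericyte markers were above 0. The median of the smooth muscle and pericyte list was 0.04 with all libraries and -0.30 without ACRE 2 and ACRE 4. The part of these cells in the members' difference was not tested.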

How the data were processed

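The authors deposited whole-number read counts per gene, not normalized, with 1 column per heart. According to the submitters' processing notes the tools were CASAVA, TopHat2 2.0, Cufflinks 2.1.1 and HTSeq 0.6.1, with mm10 and GRCm38.p6 as builds. Strand setting, annotation release and the treatment of reads with several matches are not given there. Of the 83 members, 1 starts where GENCODE M21 on GRCm38 has it, so table positions are printed with no build.

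In R 4.3.3, edgeR 4.0.16 fitted genotype and the sex label by its robust quasi-likelihood F test (filterByExpr, TMM scaling, Benjamini-Hochberg adjustment over 16780 genes, threshold 0.05, 5 residual degrees of freedom, common biological coefficient of variation 30.3%). An SE is the log2 fold change divided by the root of F. Ratios used log2((CPM + 0.5)/(CPM + 0.5)) and two-sided exact permutation tests. Alternatives were DESeq2 1.42.0, voom of limma 3.58.1, other scalings, offsets, leaving out the sex covariate and left-out libraries. The fit was tested on simulated data with less spread between libraries and larger folds than most members had, so that test does not cover changes as small as theirs. Every pair of libraries differed beyond sampling noise (smallest chi-square per degree of freedom 17.5). Litters and surgery days are not stated, so p-values measure the spread between these hearts.

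Members and gene lists were chosen with earlier results of these data known. Genes were named by a rule: paralog pairs, the 6 smallest p per direction, the 5 highest and lowest levels per length, the 5 lowest correlations, X-linked members, up to 3 genes per list and the 5 genes most like Rpl3l. Rps14, Rpl19, Rpl29, Rpl41, Rplp2, Myh6 and the copies of members were named after their values were seen. Transcripts were compared in windows of 50 bases of GENCODE M21 and aligned with Biopython 1.88.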

Additional observations from a re-analysis of the deposited data

Results flagged for a closer look

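In the groups of 4 hearts, 72 sets of values were tested for a sample far from the others, by the gap to its neighbour over the range of the group. Of these, 5 were found, and chance alone marks about 1 in 20 groups. The ratio of Rpl3l to Rpl3 reads was 1.15 in ACRE 4, against 0.591 to 0.624 in the other ACRE hearts. Rpl30 was high in CMS7KO 2, at 37.6 CPM against 7.77 to 10.1 CPM in the other CMS7KO hearts. Rpl7a was high in CMS7KO 4, at 83.5 CPM against 24.2 to 27.6 CPM, and low in ACRE 1, at 30.0 CPM against 51.0 to 53.2 CPM in the other ACRE hearts. Rplp0 was low in CMS7KO 3, at 557 CPM against 658 to 676 CPM in the other CMS7KO hearts.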

How the results depend on the processing

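The median log2 fold change of the members stayed above 0 under every one of the 21 alternative fits, from 0.11 to 0.44, and 69 to 77 members stayed above 0. Scaling by library totals alone shifted the median of all genes to 0.14 and that of the members to 0.44, and left 4 members below 0 in place of 8. With no filter on low counts, edgeR called 2 members higher (Rps12, adjusted p = 0.0351, and Rps27a, 0.0268) and 1 lower (Rpl30, 3.37e-08), with 456 and 912 of all genes called, and every other alternative called 0 members. Without ACRE 2 and ACRE 4 the number of all genes called was 86 higher and 89 lower, against 3 and 3 with all libraries, and DESeq2 called 278 and 206. The sex covariate follows labels that the reads of CMS7KO 3 and ACRE 3 go against. Without it 73 of 81 members were above 0, with a median of 0.32. At an unadjusted edgeR p under 0.05 that fit had 14 members higher and 1 lower, with 1347 and 1678 of all 16780 genes.

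The ratio of Rpl3l to Rpl3 kept its sign throughout. It lay between -1.05 and -0.60 (log2 difference) when 1 heart was left out, where the test with 4 against 3 cannot reach the threshold (p = 0.0571), at -0.66 without ACRE 2 and ACRE 4 (exact permutation p = 0.133) and at -1.04 without ACRE 3 and CMS7KO 3 (exact permutation p = 0.1), both the smallest those designs allow. The ratios of the other 3 pairs and the difference in the share of reads also kept their sign in every alternative run, and the sex label gave 0 members in each. The replicate numbers did not pair the samples (correlations of same-numbered deviations -0.17, -0.19, 0.12 and 0.20). With the replicate block the ratio difference was -0.90 (exact permutation p = 0.125, the smallest that 4 sign changes allow), and the block fit of all genes called 0 members, with 1 gene higher and 2 lower of all genes, against 3 and 3 without it.

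Some named genes turned sign under an alternative, among them Rpl24 (0.47 with all libraries) and Rplp1 (0.25), and the cause was not tested. Rps27 (0.07) was at -0.0015 with the replicate block, -0.066 with the length offset, -0.13 with both, and between -0.34 and 0.23 when 1 heart was left out. Under library totals Rpl7l1 was at 0.050, Rpl23a at 0.020, Rpl15 at 0.0075 and Rps2 at 0.13. Without ACRE 2 and ACRE 4 Rpl23a was at 0.10, Rplp1 at -0.11 and Rps2 at 0.021, and with pseudogene reads added Rpl15 was at 0.0064. When 1 heart was left out Rpl24 lay between -0.085, without CMS7KO 3, and 0.70 and Rps2 between -0.13 and 0.051. The settings that leave out ACRE 2 and ACRE 4, or ACRE 3 and CMS7KO 3, and that add pseudogene reads were chosen after seeing the data. Depth limits Rpl24 (7 to 37 reads), Rpl39l and Rpl10l.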
